A study of Mus musculus with 6 samples.

Results

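The collagen genes were taken as every row of the deposited expression table whose gene symbol is Col, a type number, the letter a and a chain number. This gave 44 genes of 23748 rows. They were sorted by known structure into 11 fibrillar chains, 6 chains of collagen IV, the collagen of basement membranes, 9 FACITs (collagens with interrupted helices that sit on the surface of fibrils) and 18 chains of other types. RNA was measured on Affymetrix whole-transcript arrays. The samples were cultured fibroblasts of mouse embryos (MEF) of stage E14.5, collected while they proliferated. There were 3 wild type samples, whose titles carry the number 18, and 3 FOG-2 Rb- samples, whose titles carry the number 27. FOG-2, the product of Zfpm2, is a partner of GATA transcription factors, and the knock-in form FOG-2 Rb- is described in the title of the study as unable to bind pRb, the retinoblastoma protein. All 6 samples were grown in the same medium with donor bovine serum. Samples are labelled as experiment 1, 2 or 3 within their genotype, and the labels give neither the number of knock-in alleles nor whether embryos or cultures were separate. The spread behind each p-value is that between these samples and may be technical. Genotype and whatever the title numbers mark cannot be told apart.

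Collagens are secreted proteins in which 3 chains wind into a helix, and most types need chains from more than 1 gene. Fibrillar collagens such as types I, III and V form the tension-bearing fibrils of connective tissue, for which fibroblasts are the main source. Collagen IV chains instead join into the sheet-like network of basement membranes, under epithelia, endothelia and mesothelia and around muscle and fat cells. Before a chain becomes part of the matrix it is hydroxylated and folded in the endoplasmic reticulum, exported, cut at its ends by proteinases and crosslinked. The comparison asks how the expression of these genes differs in growing fibroblasts that carry the form of FOG-2 described as unable to bind pRb.

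The 3 pairs of collagen IV genes lie head to head in the mammalian genome, and both chains of 2 of these pairs rose together, so their promoters are shown first. RefSeq windows (build GRCm38.p6), which run from 250 bases before to 50 bases after an annotated start, were at hand for 35 of the 44 genes, 10 of them past the threshold. The Col4a1 window is chr8:11312777-11313076 on the minus strand and the Col4a2 window is chr8:11312555-11312854 on the plus strand. Their annotated starts are 21 bases apart and the windows share 78 bases, which are in capitals in both lines and are the reverse complement of each other.
Col4a1: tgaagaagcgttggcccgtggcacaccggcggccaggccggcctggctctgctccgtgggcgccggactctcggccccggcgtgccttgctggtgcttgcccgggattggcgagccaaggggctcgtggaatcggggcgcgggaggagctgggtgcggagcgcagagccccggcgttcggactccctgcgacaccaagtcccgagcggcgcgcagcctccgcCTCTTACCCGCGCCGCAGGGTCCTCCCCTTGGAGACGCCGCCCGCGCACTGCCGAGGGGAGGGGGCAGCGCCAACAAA
Col4a2: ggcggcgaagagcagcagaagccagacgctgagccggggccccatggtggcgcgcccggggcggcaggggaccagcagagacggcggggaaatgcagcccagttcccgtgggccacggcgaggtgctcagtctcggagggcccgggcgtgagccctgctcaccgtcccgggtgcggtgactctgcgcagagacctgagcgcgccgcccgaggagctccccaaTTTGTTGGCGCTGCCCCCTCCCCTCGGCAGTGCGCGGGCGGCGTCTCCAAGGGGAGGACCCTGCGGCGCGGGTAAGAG
The Col4a5 window is chrX:141475169-141475468 on the plus strand and the Col4a6 window is chrX:141474027-141474326 on the minus strand. These starts are 1343 bases apart and the windows share 0 bases. Capitals in the next 2 lines mark the GC box GGGCGG on either strand and, in Col4a6 alone, the word AGATAG, which reads CTATCT on the printed strand.
Col4a5: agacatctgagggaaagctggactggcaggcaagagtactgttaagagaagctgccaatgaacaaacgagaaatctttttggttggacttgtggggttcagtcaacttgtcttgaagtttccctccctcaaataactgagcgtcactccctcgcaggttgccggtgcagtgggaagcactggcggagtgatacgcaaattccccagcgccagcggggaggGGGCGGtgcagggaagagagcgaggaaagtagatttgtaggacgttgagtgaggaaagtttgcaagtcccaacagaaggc
Col4a6: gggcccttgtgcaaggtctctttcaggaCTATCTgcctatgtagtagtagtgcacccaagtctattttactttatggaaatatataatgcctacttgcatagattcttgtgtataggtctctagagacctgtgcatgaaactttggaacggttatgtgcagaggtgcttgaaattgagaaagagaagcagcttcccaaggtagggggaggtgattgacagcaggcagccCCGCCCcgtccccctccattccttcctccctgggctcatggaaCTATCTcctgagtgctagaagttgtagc

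The windows of Col4a1 and Col4a2 were richer in G and C (74.0% and 73.7%) than those of Col4a5 (52.7%) and Col4a6 (48.3%). The median was 59.8% over the 38 collagen windows and 52.7% over all 32851 windows. The GC box was found in all 4 of these windows, in 22 of the 35 collagen genes and in 35.7% of all windows. Because FOG-2 acts with GATA factors, 4 words were searched on both strands. The first was AGATAA, the second was AGATAG, another was TGATAA and the last was TGATAG. At least 1 was found in 6 of the 35 collagen genes, namely Col3a1, Col11a2, Col27a1, Col4a6, Col17a1 and Col28a1, and in 29.8% of all windows. In Col4a6 the word AGATAG stood 222 bases before and 22 bases after the annotated start, and it was found in 8.95% of all windows. These matches describe letters in the windows, and binding was not measured.

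Across the 44 collagen genes, 7 rose in FOG-2 Rb- cells, 4 fell and 33 did not pass the test. A gene passed where limma's adjusted p, corrected over all 23748 rows, was under 0.05. That was 25% of the collagens, against 18% of all rows. The 7 rises were 15.9% of the collagens, against 9.44% of all rows, and the 4 falls were 9.09%, against 8.59%. The median log2 difference was -0.02, as over all rows, and the median absolute difference was 0.12, against 0.1 over all rows. For 16 of the 44 genes the 2 groups had no overlap, 10 higher and 6 lower in FOG-2 Rb- cells, while 35.6% of all rows had no overlap. By structural class, 4 of the 6 collagen IV genes rose and 0 fell, 2 of 11 fibrillar genes rose and 1 fell, 1 of 9 FACIT genes rose and 0 fell, and 0 of the 18 other genes rose and 3 fell. Differences between the classes were not tested.

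**Figure D1:**
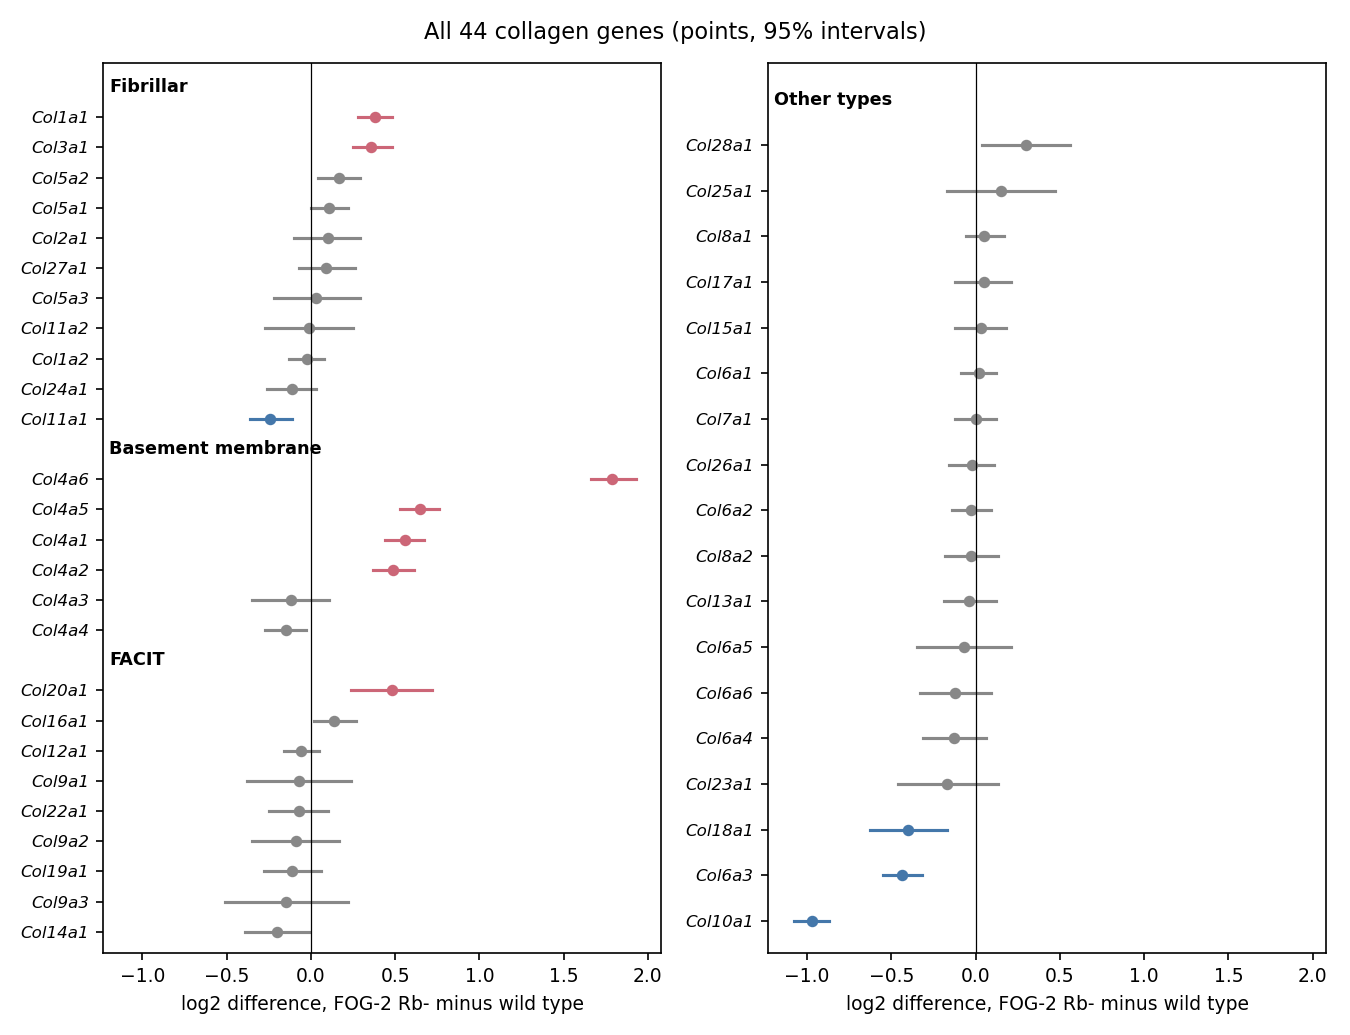
Log2 difference in expression, FOG-2 Rb- minus wild type, for all 44 collagen genes by structural class; points are differences of means of 3 samples each and bars are 95% intervals from limma. Red marks genes that rose, blue genes that fell and grey genes that did not pass; Col4a6 lies farthest to the right at 1.79 and Col10a1 farthest to the left at -0.97.

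Of the collagen IV genes, 4 of 6 rose in FOG-2 Rb- cells, by 1.41-fold to 3.46-fold. Col4a1 and Col4a2 encode the chains that make up the collagen IV of nearly all basement membranes. Values are log2 expression, given in the order of replicates 1 to 3. Col4a1 measured 9.48, 9.44 and 9.54 in wild type and 10.04, 10.03 and 10.07 in FOG-2 Rb- samples. All FOG-2 Rb- samples lay above all wild type samples. The mean rose from 9.49 ± 0.05 to 10.05 ± 0.02 (SD, n = 3 each), which is 1.47-fold (log2 difference 0.56, SE 0.05, adjusted p = 0.000445). Col4a2 measured 9.16, 9.20 and 9.29 in wild type and 9.72, 9.69 and 9.71 in FOG-2 Rb- samples, again with no overlap. It rose 1.41-fold (log2 difference 0.49, SE 0.05, adjusted p = 0.000992).

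The X-linked pair rose as well. Col4a5 encodes a chain of the kidney glomerular basement membrane and of several epithelial ones, and Col4a6 a chain that pairs with it under epithelia and around smooth muscle. Col4a5 measured 7.58, 7.64 and 7.57 in wild type and 8.22, 8.29 and 8.21 in FOG-2 Rb- samples. Its values did not overlap, and the mean rose 1.56-fold (log2 difference 0.65, SE 0.05, adjusted p = 0.000231). Col4a6 measured 5.30, 5.22 and 5.27 in wild type and 7.02, 7.15 and 7.0 in FOG-2 Rb- samples. The groups were far apart, and the mean went from 5.26 ± 0.04 to 7.06 ± 0.08 (SD, n = 3 each). This 3.46-fold rise (log2 difference 1.79, SE 0.06, adjusted p = 6.88e-06) was the largest change among the 44 collagen genes. The wild type level of Col4a6 was close to 5.07, the log2 level under which 95% of the 1366 odorant and pheromone receptor rows lay. These receptors are hardly expressed in fibroblasts, so values near this level may be mostly background and the fold may be understated. Xist, the X inactivation transcript of female cells, had means of 11.73 ± 0.03 and 11.71 ± 0.01 (SD, n = 3 each), and the Y-linked genes Kdm5d, Uty and Eif2s3y had means of 3.35 to 3.65. High Xist with Y-linked genes under the receptor level, as in female cells, was seen in both genotypes. The values of these 4 sex-linked genes overlapped between the genotypes.

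Col4a3 and Col4a4, whose chains join Col4a5 chains in the glomerular basement membrane, did not pass. Col4a3 measured 4.87, 4.71 and 4.53 in wild type and 4.52, 4.54 and 4.70 in FOG-2 Rb- samples, so the groups overlapped (log2 difference -0.12, 95% interval -0.35 to 0.11, adjusted p = 0.486). Col4a4 measured 5.20, 5.15 and 5.10 against 4.96, 5.05 and 4.98. Its groups did not overlap, but it did not pass over all rows (log2 difference -0.15, 95% interval -0.27 to -0.03, adjusted p = 0.0887). Both lay near the level of the receptor rows, so a difference in these 2 genes would be hard to detect. The 4 rises passed in each of the 14 other settings tried, which included leaving out each sample in turn. A setting that only renamed rows could not have changed them.

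**Figure D2:**
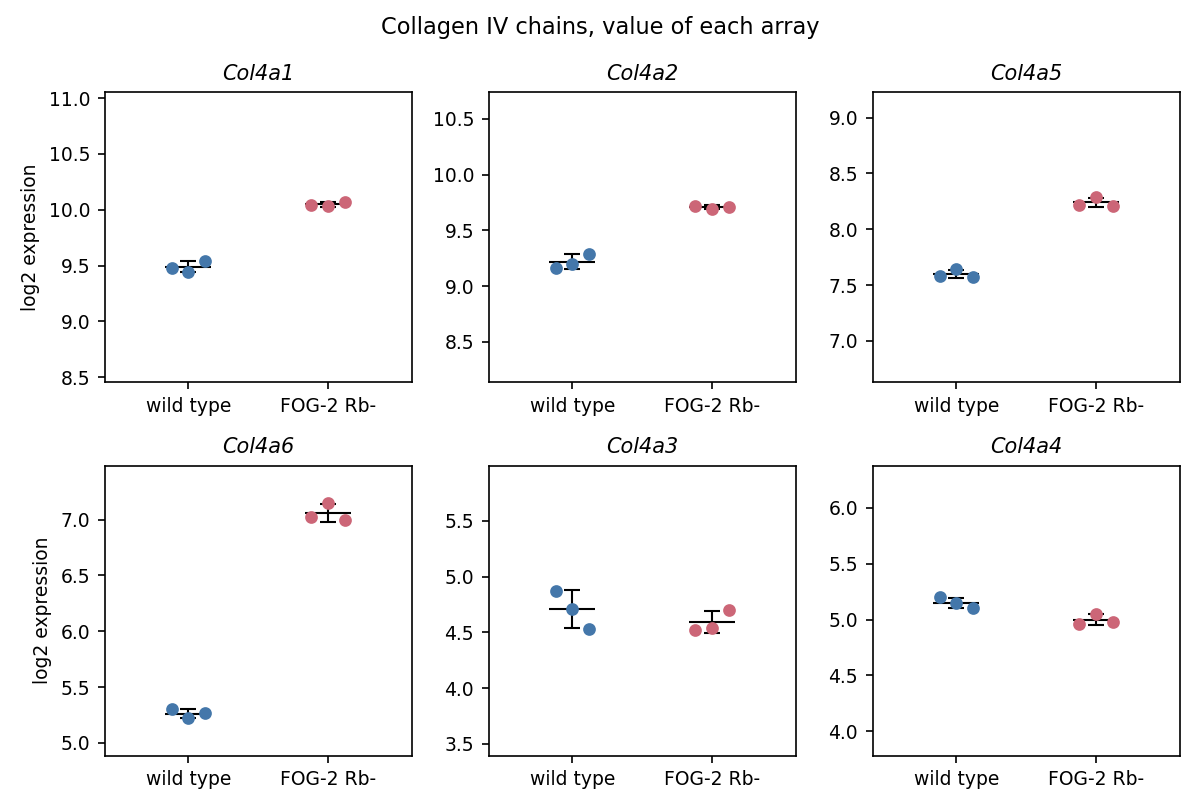
Log2 expression of the 6 collagen IV genes in each sample; points are samples, horizontal lines are means and bars are SDs over 3 samples, and all panels span the same number of log2 units. FOG-2 Rb- samples lie above wild type samples for Col4a1, Col4a2, Col4a5 and Col4a6 and not for Col4a3 and Col4a4.

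Markers of another cell type that lies on a basement membrane moved with these genes. Of 13 listed markers of mesothelium, the epithelium-like lining of body cavities, 8 rose in FOG-2 Rb- cells, 1 fell and 4 did not pass, where 9.44% of all rows rose and 8.59% fell. Their summed level on the linear scale was 833 to 871 in wild type and 1780 to 1891 in FOG-2 Rb- samples, a sum that the brightest members weigh on most. Upk1b rose 9.68-fold and Wt1 2.10-fold, while Msln fell 2.35-fold and Krt8 had a log2 difference of -0.07. Muc16, a defining marker, was at or under 3.47 in every sample, within the range of the receptor rows. Among the rises, Lrrn4 lay under the receptor level in both genotypes and Gpm6a did in wild type. All 6 listed smooth muscle markers passed, in both directions. Of these Acta2 (log2 difference 0.16), Tagln (0.36), Des (0.40) and Lmod1 (0.43) rose, while Cnn1 and Myh11 fell by 0.78 and 0.46. The part of mesothelial or smooth muscle cells in the collagen IV result was not tested. In bulk samples, a difference in the number of cells of a type and a difference in RNA per cell cannot be told apart. Of 8 epithelial markers 0 rose and 0 fell, and 5 of them were under the receptor level on average. Of 8 endothelial markers Kdr, a VEGF receptor gene, rose 5.18-fold, and the other 7, with Pecam1, Cdh5 and Tek among them, did not pass. Of the 8, 4 lay under the receptor level in wild type and 5 in FOG-2 Rb- samples, Tek in both genotypes. A difference in such genes would be hard to detect.

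Among the fibrillar collagens, Col1a1 and Col3a1 rose slightly and Col11a1 fell. Col1a1, the major chain of collagen I, measured 12.41, 12.39 and 12.44 in wild type and 12.80, 12.81 and 12.78 in FOG-2 Rb- samples. The samples of each genotype lay within 0.05 of each other. It rose 1.30-fold (log2 difference 0.38, SE 0.04, adjusted p = 0.00146). Col3a1, whose chain forms collagen III in elastic tissues, measured 10.09, 10.05 and 10.13 in wild type and 10.41, 10.49 and 10.46 in FOG-2 Rb- samples. It rose 1.29-fold (log2 difference 0.36, SE 0.05, adjusted p = 0.00276). Its groups did not overlap either.

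Col1a2, whose chain joins Col1a1 chains in collagen I, did not pass the threshold. It measured 12.32, 12.30 and 12.32 in wild type and 12.26, 12.31 and 12.31 in FOG-2 Rb- samples (log2 difference -0.02, 95% interval -0.13 to 0.08, adjusted p = 0.787). Within each sample, the log2 difference between Col1a1 and Col1a2 was 0.09, 0.09 and 0.12 in wild type and 0.54, 0.50 and 0.47 in FOG-2 Rb- samples. This difference shifted by 0.40 without overlap. The exact two-sided permutation test gave p = 0.1, the smallest that 3 against 3 samples allow, and 0.45 after adjustment over the 9 chain pairs compared. The level on the array is not a number of chains, so only the shift between genotypes can be read.

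Col11a1, a chain of the minor fibrillar collagen XI that is abundant in cartilage, measured 8.89, 8.94 and 8.96 in wild type and 8.67, 8.77 and 8.65 in FOG-2 Rb- samples. It fell by 0.24 on the log2 scale (SE 0.05, adjusted p = 0.0236), or 1.18-fold. This call was lost in 4 of the 6 fits that left out 1 sample, with adjusted p = 0.0694 to 0.0858. The chains of collagen V did not pass. Col5a1 and Col5a2, which limit fibril width together with collagen I, had log2 differences of 0.11 (adjusted p = 0.153) and 0.17 (adjusted p = 0.0761), and neither gene's groups overlapped. Col2a1, the main cartilage collagen, had a log2 difference of 0.10 (95% interval -0.10 to 0.29), Col5a3 of 0.03, Col11a2 of -0.01, Col24a1 of -0.11 and Col27a1 of 0.09, none of them past the threshold.

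**Figure D3:**
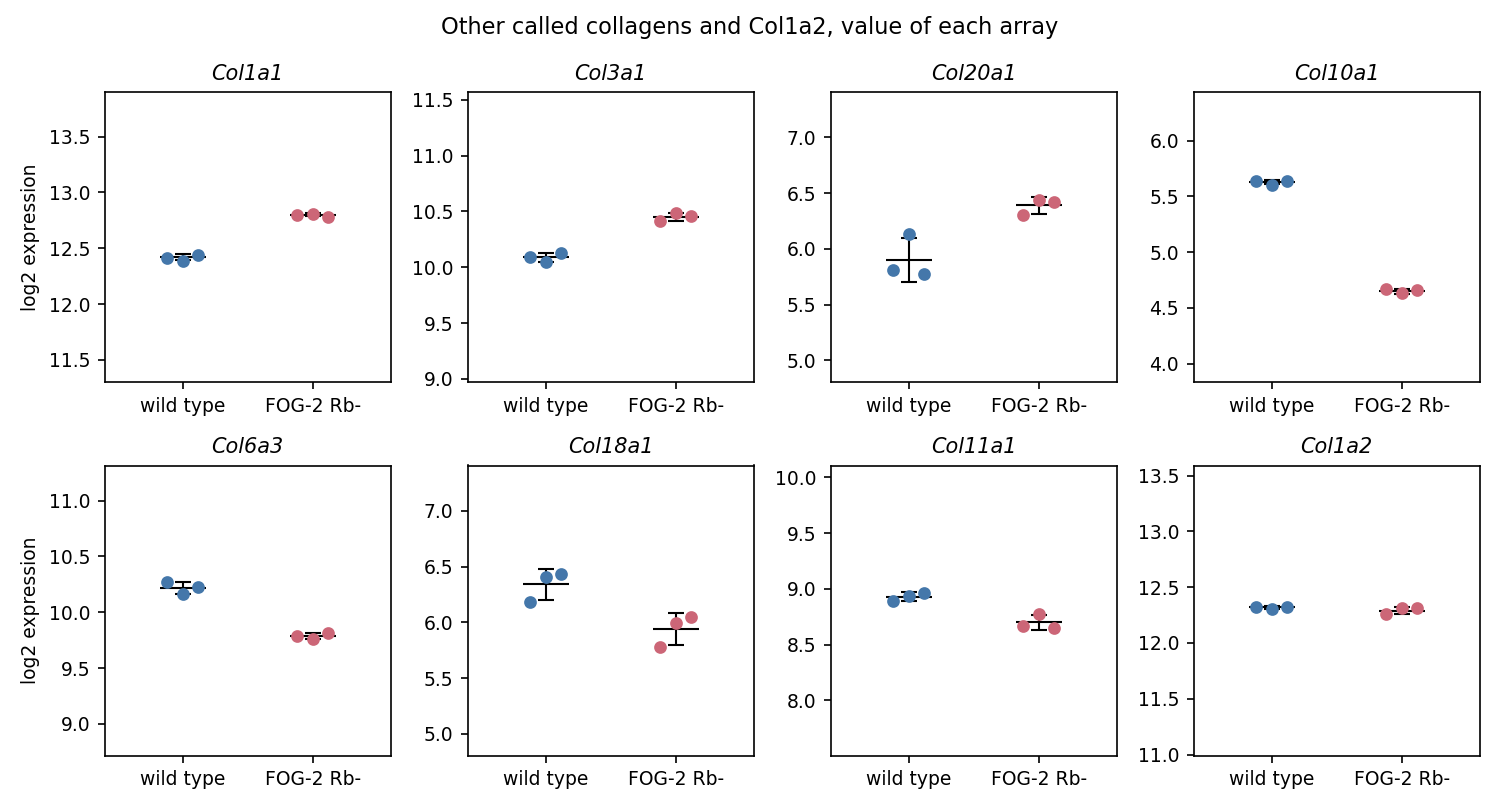
Log2 expression in each sample of the 7 collagen genes outside collagen IV that passed the threshold, and of Col1a2 for comparison with Col1a1; points are samples, horizontal lines are means and bars are SDs over 3 samples. Col1a1, Col3a1 and Col20a1 are higher and Col10a1, Col6a3, Col18a1 and Col11a1 lower in FOG-2 Rb- samples, and the groups of Col1a2 overlap.

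The largest fall was that of Col10a1, the collagen of hypertrophic cartilage cells, which forms a hexagonal network. It measured 5.64, 5.60 and 5.64 in wild type and 4.67, 4.63 and 4.66 in FOG-2 Rb- samples. The mean went from 5.63 ± 0.02 to 4.65 ± 0.02 (SD, n = 3 each), a 1.96-fold fall (log2 difference -0.97, SE 0.04, adjusted p = 2.69e-05). The FOG-2 Rb- level lay under the receptor level of 5.07, so this fold may be understated. Of the other cartilage and bone markers listed, 3 of 10 matched fell and 0 rose, where 8.59% of all rows fell and 9.44% rose. These were Sox9, a cartilage transcription factor gene (log2 difference -1.38), Acan, which encodes aggrecan (-0.54), and Chad (-0.34). Chad lay under the receptor level in both genotypes, as did Comp, Matn1, Matn3, Sp7 and Ibsp, and Acan did in FOG-2 Rb- samples. The summed linear level of this list was 1238 to 1332 in wild type and 626 to 666 in FOG-2 Rb- samples, and most of it was Sox9, which measured 10.02, 9.91 and 10.08 in wild type and 8.54, 8.67 and 8.67 in FOG-2 Rb- samples on the log2 scale. Their part in the falls of Col10a1 and Col11a1 was not tested. The other network-forming genes, Col8a1 and Col8a2, had log2 differences of 0.05 and -0.03 and did not pass.

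Collagen VI forms beaded filaments around cells, and its usual molecule holds 1 chain each from Col6a1, Col6a2 and Col6a3. Of these Col6a3 passed the threshold and the other two did not. It measured 10.27, 10.16 and 10.23 in wild type and 9.79, 9.76 and 9.81 in FOG-2 Rb- samples, with no overlap. It fell 1.35-fold (log2 difference -0.44, SE 0.05, adjusted p = 0.00142). Col6a1 had a log2 difference of 0.02 (95% interval -0.09 to 0.12) and Col6a2 of -0.03 (95% interval -0.14 to 0.09). Within each sample Col6a1 exceeded Col6a3 by 1.45, 1.59 and 1.54 log2 units in wild type and by 1.97, 2.00 and 1.98 in FOG-2 Rb- samples. This comparison was chosen after the values were seen and was not tested. Col6a4, Col6a5 and Col6a6, further chains that can replace Col6a3, did not pass (log2 differences -0.13, -0.07 and -0.12), and the first 2 lay under the receptor level.

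Col18a1, a collagen of basement membrane zones that releases the fragment endostatin, fell, while 4 collagen IV chains rose. It measured 6.18, 6.41 and 6.43 in wild type and 5.78, 5.99 and 6.05 in FOG-2 Rb- samples. It fell 1.32-fold (log2 difference -0.40, SE 0.10, adjusted p = 0.0291), and the lowest wild type sample was 0.13 above the highest FOG-2 Rb- sample. Its relative Col15a1 had a log2 difference of 0.03 (95% interval -0.12 to 0.18). Col20a1, a FACIT chain described in chick embryos, measured 5.81, 6.13 and 5.77 in wild type and 6.30, 6.44 and 6.42 in FOG-2 Rb- samples. It rose 1.40-fold (log2 difference 0.48, SE 0.10, adjusted p = 0.0182). Col18a1 and Col20a1 each lost the threshold in 4 of the 6 fits that left out 1 sample, with adjusted p of 0.0663 to 0.0965 for Col18a1 and 0.0553 to 0.0652 for Col20a1.

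The remaining FACIT genes did not pass. Col12a1, whose chain decorates collagen I fibrils in tendon and skin, measured 11.64, 11.59 and 11.60 in wild type and 11.56, 11.56 and 11.54 in FOG-2 Rb- samples (log2 difference -0.06, adjusted p = 0.448). Col14a1, another fibril-associated chain, had a log2 difference of -0.20 (95% interval -0.39 to -0.01, adjusted p = 0.156) and lay under the receptor level in both genotypes. Col16a1 had a difference of 0.14 (adjusted p = 0.107), and the cartilage chains Col9a1, Col9a2 and Col9a3 had differences of -0.07, -0.09 and -0.15. Col19a1 and Col22a1 had differences of -0.11 and -0.07. Col7a1, which forms the anchoring fibrils of skin, had a difference of 0.00 (95% interval -0.12 to 0.12). The transmembrane collagens Col13a1, Col17a1, Col23a1 and Col25a1 had differences of -0.04, 0.05, -0.17 and 0.15, and Col26a1 and Col28a1 of -0.02 and 0.30, with the highest of these at adjusted p = 0.115.

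Over the 33 collagen genes that did not pass, log2 differences ran from -0.20 to 0.30. Their 95% intervals ran from -0.51 to 0.56, each within a 1.5-fold change of the array value either way. For genes near or under the receptor level, values may be mostly background, so there the intervals do not bound a change in RNA. Samples of a genotype differed little. The median SD over the 44 genes was 0.08 in wild type and 0.06 in FOG-2 Rb- samples, with the highest for Col9a3 (0.318, wild type) and Col23a1 (0.203, FOG-2 Rb-). Wild type replicate 1 held the highest of the 3 wild type values for 25 of the 44 genes, and for 37.5% of all rows. Of the 44 genes, 7 had means over all samples under the receptor level, and 0 of these passed.

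Of the 9 pairs of chains compared within samples, 2 had differences that did not overlap between the genotypes, Col1a1 with Col1a2 and Col4a5 with Col4a6. Col4a5 exceeded Col4a6 by 2.28, 2.42 and 2.31 log2 units in wild type and by 1.20, 1.15 and 1.21 in FOG-2 Rb- samples, so within this pair Col4a6 gained 1.15 log2 units on Col4a5 (exact permutation p = 0.1, adjusted p = 0.45). The shared-promoter pair Col4a1 and Col4a2 kept differences of 0.32, 0.24 and 0.25 in wild type and 0.31, 0.33 and 0.36 in FOG-2 Rb- samples, which overlapped (exact permutation p = 0.2). Col6a1 with Col6a2 also overlapped, at 1.96, 1.98 and 1.93 against 2.04, 1.97 and 2.00. The other pairs, Col4a3 with Col4a4, Col5a1 with Col5a2, Col8a1 with Col8a2, Col9a1 with Col9a2 and Col11a1 with Col11a2, had exact permutation p of 0.3 to 0.8.

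Among the listed genes that make and mature collagen, more were higher than lower in FOG-2 Rb- cells. The list was drawn up with earlier results of these data known. Its shares, and those of its roles given below, therefore describe the list and do not test the pathway. Of 56 listed pathway genes 54 were matched to a row by symbol; 19 of these rose (35.2%, against 9.44% of all rows) and 4 fell (7.41%, against 8.59%). The median log2 difference was 0.10, against -0.02 over all rows. Of 15 genes for hydroxylation and glycosylation of chains, 6 rose and 0 fell. P3h2, a prolyl 3-hydroxylase known to modify collagen IV, measured 8.34, 8.42 and 8.43 in wild type and 9.48, 9.47 and 9.49 in FOG-2 Rb- samples. It rose 2.12-fold (log2 difference 1.08, adjusted p = 2.46e-05). P3h4, which acts in lysyl hydroxylation complexes, Plod2, the lysyl hydroxylase of chain ends, and P4ha2, a catalytic subunit of prolyl 4-hydroxylase, rose with log2 differences of 0.55, 0.50 and 0.47. P4hb, the shared subunit of that enzyme, had a difference of 0.05 (adjusted p = 0.578).

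Of 8 matched genes for folding and export, 3 rose and 0 fell, where 9.44% of all rows rose and 8.59% fell. Creb3l1, a membrane-bound transcription factor that drives collagen secretion in mouse bone, measured 9.40, 9.42 and 9.42 in wild type and 10.35, 10.32 and 10.40 in FOG-2 Rb- samples (log2 difference 0.94, adjusted p = 3.61e-05). The collagen chaperone gene Serpinh1 and the coat protein gene Sec24d rose with differences of 0.27 and 0.20, and the call of Sec24d was lost in 5 of the 6 fits that left out 1 sample. Of 7 matched genes that cut the propeptides or help in it, 6 rose and 0 fell. Pcolce2, an enhancer of the C-proteinase, measured 6.32, 6.85 and 6.70 in wild type and 8.04, 7.93 and 7.96 in FOG-2 Rb- samples. It rose 2.55-fold (log2 difference 1.35, adjusted p = 0.000685), and its wild type samples were the more spread. The N-proteinase gene Adamts14 rose with a log2 difference of 0.94, the C-proteinase gene Tll1 with 0.78 and Adamts3 with 0.33, although Adamts3 lay under the receptor level. With 1 sample left out, 5 to 6 of these 7 genes rose. When rows were named through Entrez IDs instead, 7 propeptide processing genes and 4 folding and export genes rose.

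Crosslinking, binding and breakdown genes moved both ways. The threshold was passed by 40% of the crosslinking, 20% of the receptor and 44.4% of the breakdown genes, against 18% of all rows. The receptor genes were thus near the share of all rows. Lox, the main crosslinking oxidase gene, rose with a log2 difference of 0.26 (adjusted p = 0.00729) and its relative Loxl3 fell by 0.55 (adjusted p = 0.000511), among 5 genes. Of 10 receptor genes, the collagen receptor kinase gene Ddr1 rose with a difference of 0.60 (adjusted p = 0.000322). Itga1, which encodes a collagen IV-binding integrin subunit, fell by 0.23 (adjusted p = 0.0355), a call lost in 5 of the 6 fits that left out 1 sample. Of 9 breakdown genes, the membrane-bound collagenase gene Mmp14 (0.33) and the cathepsin gene Ctsk (0.19) rose. The genes of the gelatinases, which cut collagen IV and denatured collagen, fell, by 0.24 for Mmp2 and 0.45 for Mmp9. The call of Ctsk was lost in 5 of the 6 fits that left out 1 sample, and those of Mmp2 and Mmp9 in 2 each, with adjusted p = 0.0513 to 0.0539 for the gelatinases. Of the 4 falls in the pathway, 1 was left when FOG-2 Rb- replicate 2 was dropped, and 2 were left when FOG-2 Rb- replicate 3 or wild type replicate 2 was dropped.

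**Figure D4:**
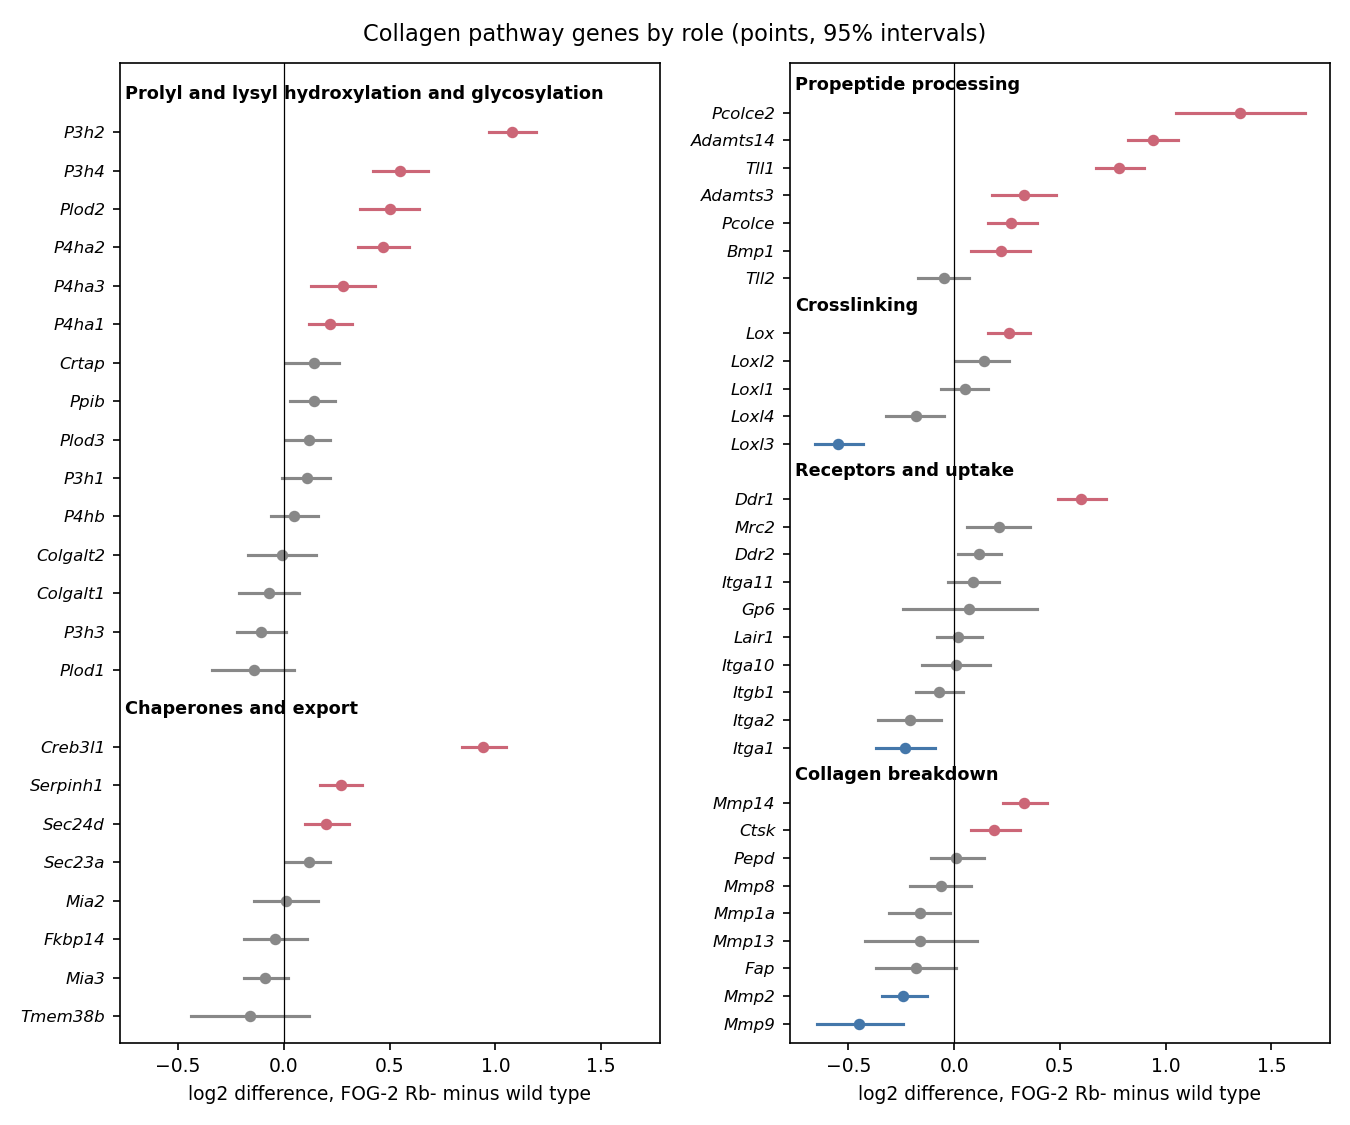
Log2 difference in expression, FOG-2 Rb- minus wild type, for the 54 matched genes of collagen modification, export, processing, crosslinking, binding and breakdown; points are differences of means of 3 samples each and bars are 95% intervals from limma. Red marks genes that rose, blue genes that fell and grey genes that did not pass; 6 of the 7 propeptide processing genes are red.

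Over the whole table, 4281 of 23748 rows passed, 2241 higher and 2040 lower in FOG-2 Rb- cells, and median log2 values of the 6 samples ran from 5.65 to 5.73. Zfpm2, the targeted gene, fell without overlap, with a log2 difference of -0.29 (adjusted p = 0.00913). This fall does not check the labels because a changed binding site need not alter the level. In the authors' deposited table, 16 of the 44 collagen genes had an unadjusted p under 0.05, against 28.2% of all rows. Of 13 fibroblast markers, 13 had means over all samples above the receptor level, 3 rose, 5 fell and 5 did not pass. Dcn, which encodes the collagen-binding proteoglycan decorin, fell 3.41-fold and Lum, which encodes its relative lumican, 2.93-fold, to a level under that of the receptor rows. Pdgfra, Thy1 and S100a4 fell by 0.90, 0.78 and 0.74 on the log2 scale, and Fbln2, Postn and Prrx1 rose with log2 differences of 0.40, 0.28 and 0.27. The summed linear level of the list was 36618 to 37344 in wild type and 36688 to 36811 in FOG-2 Rb- samples, but Vim, Fn1 and other bright genes carry that sum and it does not show the falls. The part of these differences between the cultures in the collagen results was not tested. Macrophage, neural and skeletal muscle lists had 3 rises and 0 falls among 15 matched markers, where 9.44% of all rows rose and 8.59% fell. The rises were those of Cd68, Csf1r and Mbp. Over all samples, 3 of 5 macrophage, 2 of 4 neural and 4 of 6 skeletal muscle markers averaged under the receptor level.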

How the data were processed

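RMA and Partek are named in the submitters' processing notes. Not given in the sources used here are their versions, the probe definition and the build. The authors deposited log2 expression values for 23748 rows, each with an Entrez gene. A second table that the authors deposited gives their comparison as p-values, a ratio (mutant to wild type) and a fold change written as a signed score, minus the inverse of the ratio where that is under 1. Log2 of this ratio and the difference of means calculated here were within 7.18e-06 of each other, which settles direction and scale. A symbol was annotated for 23111 rows; the remaining 637 entered the tests without a name.

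The test was limma 3.58.1 under R 4.3.3: a linear model of genotype with moderated (eBayes) variances, two-sided, adjusted by Benjamini-Hochberg across all rows, with 0.05 as the threshold. Adjusted p-values of genes come from that model. The members and lists were chosen with earlier results of these data known. All collagens could be named, with values per sample where they passed with an absolute log2 difference of at least 0.4, and at most 4 pathway genes per role, the largest differences past the threshold. The values per sample of other collagens, and the values given for P4hb, Xist and the Y-linked genes, were chosen after being seen. The values per sample of Sox9 and Ccbe1 lie outside this rule too. Of 56 pathway genes 2 had no annotated symbol. In simulated data with 200 changed genes, 20% of those shifted by 0.3 log2 units were recovered, 64% at 0.5 and 90% at 1, with 2 false calls among 137. The real comparison had 4281 calls, so its cutoff on the unadjusted p was less strict. The simulated shares therefore do not give the power of the test used here. Precision is limited by the number of arrays.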

Additional observations from a re-analysis of the deposited data

How the results depend on the processing

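Of the 11 collagen genes that passed, 8 (Col1a1, Col3a1, Col4a1, Col4a2, Col4a5, Col4a6, Col6a3 and Col10a1) passed in all 14 alternatives, and 3 (Col11a1, Col18a1 and Col20a1) lost the threshold in some. With 1 sample left out, 6 to 8 collagens rose and 2 to 4 fell (2 when wild type replicate 3, or replicate 1 of FOG-2 Rb-, was dropped), 14 to 17 pathway genes rose and 1 to 4 fell, and 2805 to 3446 of all rows passed, fewest without FOG-2 Rb- replicate 3; fewer samples leave fewer calls. With the replicate number as a block, 8 collagens rose and 3 fell, 15 pathway genes rose and 3 fell, and 3181 rows passed; the block ended the call of Col11a1 (adjusted p = 0.0577) and gave one to Col28a1 (0.0387), and it ended those of Sec24d, Mmp2 and Ctsk. Deviations of same-numbered samples correlated at 0.00 to 0.03, so the numbers were not taken to pair the samples. An ordinary ANOVA, the test behind the authors' deposited p-values, left 2 falls among the pathway genes, and the cause was not tested. Of 888 checks of 64 named genes, 838 kept the call or the lack of one, 42 lost a call, 8 gained one and 0 reversed. Naming rows through Entrez IDs, 1 of the 14 alternatives, reused the main fit, so no named gene could change its call there. It gave 21 pathway rises. An intensity trend in the variances passed 5495 rows. Arrays hold no counts, and the 7 collagens under the receptor level, with others near it, could hide differences.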

Other observations

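Proteins outside the collagen family also carry collagen-like stretches, among them collectins, complement C1q and its relatives, and scavenger receptors. This list of 36 genes was drawn up after the values were seen. Of the 36, 4 rose in FOG-2 Rb- cells and 3 fell, together 19.4%, against 18% of all rows, and 18 lay under the receptor level. Ccbe1, which encodes a secreted factor of lymphatic growth, measured 7.65, 7.61 and 7.76 in wild type and 8.94, 8.99 and 8.91 in FOG-2 Rb- samples and rose 2.42-fold. Cthrc1, a secreted protein gene of matrix-producing cells, rose 1.67-fold, Colec12 1.27-fold and C1qtnf1 1.32-fold. Scara3 fell 1.51-fold, C1qtnf3 1.41-fold and C1ql3 1.38-fold.

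In the authors' deposited table the ratio of mutant to wild type was 3.46 for Col4a6 and 0.509 for Col10a1.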
